A study of Homo sapiens with 12 samples.

Results

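The proteins of the mitochondrial ribosome were followed at the RNA level in Caco-2 cells, a line established from a human colorectal tumour whose cells take on features of enterocytes in culture. Members were genes whose symbol starts with MRPL or MRPS and a digit, leaving out pseudogenes and antisense genes. Kept probes were those with a detection p-value below 0.05 on 3 or more of the 12 arrays, and each gene was read from its brightest one. Of 77 such protein-coding genes in RefSeq, 76 had a probe, and all 76 passed the filter and were detected on each of the 12 arrays. They are 76 of the 12566 genes tested. MRPL27 was not analysed here. By their place in the human mitochondrial ribosome, 50 belong to the large subunit and 26 to the small subunit. MRPS30 and MRPS18A count as large subunit members in spite of their symbols. Of the 76 proteins, 45 have a counterpart in the bacterial ribosome and 31 are specific to mitochondria.

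The samples formed 4 groups of 3 arrays. They were a line with the label of a doxycycline-inducible shRNA (short hairpin RNA) to the ligand-binding domain of LRH-1, 96 hours after 5 µg/ml doxycycline or without it, and a control line with the same doxycycline treatment or without it. LRH-1 is a nuclear receptor encoded by NR5A2, and the hairpin vector was pTripZ, which also carries the red fluorescent marker TurboRFP. The control line has the word native in its titles, while its genotype label says non-silencing vector, so whether it held a vector is unsettled. The design text names 2 targeting sequences without saying which was on the arrays.

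Mitochondrial ribosomes translate the few proteins encoded by mitochondrial DNA, all of them subunits of the respiratory chain complexes and ATP synthase. Their protein subunits are encoded in the nucleus, made in the cytosol and imported, while their RNAs come from mitochondrial DNA. The small subunit decodes the messenger RNA and the large subunit forms the peptide bond. Tetracyclines such as doxycycline bind bacterial ribosomes and also inhibit translation in mitochondria, so the inducer of this design is itself known to act on the mitochondrial ribosome.

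Gene promoters of this family were searched for motifs of factors known to act on nuclear genes of mitochondria. The RefSeq promoter table, on GRCh38.p14, held 68 of the 76 members, each with 250 bases before the start and 50 after it. The motifs were GCGC, any base and TGCGC in a row for NRF1, CCGGAAGT for ETS factors such as GABP, and AANATGGCG for YY1, searched on both strands. The NRF1 motif was found in 8 member promoters (11.8%), against 6.28% of 27305 promoters in the table. The ETS motif was found in 10 member promoters (14.7%), against 4.44% of all. The YY1 motif was found in 18 member promoters (26.5%), against 3.37% of all. At least 1 motif stood in 32 member promoters (47.1%), against 12.7% of all promoters, and motifs of different names overlapped in 0 member promoters. The 27305 promoters were not limited to genes tested here or matched to the members for base content. Whether other detected genes share these motifs as often was not tested.

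The 250 bases before the start are printed 5′ to 3′ for 4 members. MRPS26 is shown because it had the largest difference between the lines. MRPL30, MRPS9 and MRPL3 are shown because their brightest probe was higher in the shRNA-labelled line and a motif lies in this stretch. Capitals mark the motif, the NRF1 motif in MRPL30 and MRPS9 and the ETS motif in MRPL3. MRPS26 has none of the 3 motifs here. The stretches are chr20.0:3045802-3046051 (plus strand), chr2.0:99180934-99181183 (plus strand), chr2.0:105037819-105038068 (plus strand) and chr3.0:131502972-131503221 (minus strand).
MRPS26: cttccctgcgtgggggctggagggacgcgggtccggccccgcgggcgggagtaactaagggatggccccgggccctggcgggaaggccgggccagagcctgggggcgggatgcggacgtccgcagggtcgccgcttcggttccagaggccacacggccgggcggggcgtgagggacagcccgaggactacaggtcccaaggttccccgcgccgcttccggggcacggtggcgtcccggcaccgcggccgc
MRPL30: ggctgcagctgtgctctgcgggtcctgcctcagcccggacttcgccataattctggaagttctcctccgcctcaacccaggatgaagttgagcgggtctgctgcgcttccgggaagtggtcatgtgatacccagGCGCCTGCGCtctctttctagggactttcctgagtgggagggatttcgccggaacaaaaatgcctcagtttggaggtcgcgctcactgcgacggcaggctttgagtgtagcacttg
MRPS9: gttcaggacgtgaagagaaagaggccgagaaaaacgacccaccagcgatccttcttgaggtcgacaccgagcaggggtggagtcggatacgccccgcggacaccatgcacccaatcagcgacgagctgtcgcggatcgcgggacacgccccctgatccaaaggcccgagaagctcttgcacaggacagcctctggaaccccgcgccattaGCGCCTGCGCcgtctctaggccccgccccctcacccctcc
MRPL3: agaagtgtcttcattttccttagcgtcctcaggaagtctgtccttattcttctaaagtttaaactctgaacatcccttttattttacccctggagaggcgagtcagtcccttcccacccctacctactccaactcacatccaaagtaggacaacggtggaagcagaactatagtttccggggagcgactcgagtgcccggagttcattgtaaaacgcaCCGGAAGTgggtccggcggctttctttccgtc
A match describes the letters only. Also higher in the shRNA-labelled line were MRPS2, MRPL44, MRPL16, MRPL19, MRPL41, MRPL50 and MRPS17, whose promoters had none of these motifs in this stretch either. MRPL15 and MRPL35 were higher too and had no promoter entry. The 50 bases after the start, which the motif counts above included, lie outside this stretch.

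Median intensity per array was 251 to 386, between 41.2% and 44.7% of probes were detected, and replicate arrays correlated at 0.987 to 0.993 on the normalized log2 scale. The labels do not call the replicates separate cultures, and p-values here reflect the spread of these arrays alone, possibly a technical one. NR5A2, the targeted gene, had log2 signals of 10.59, 10.59 and 10.84 in the shRNA-labelled line with doxycycline, against 10.13, 10.13 and 10.24 without it. In the control line its signals were 11.18, 11.00 and 10.97 with doxycycline, against 10.10, 10.12 and 10.27 without it. The target was higher with doxycycline in the shRNA-labelled line (0.50, limma adjusted p = 0.00995). It was also higher with doxycycline in the control line (0.89, adjusted p = 0.000384). Set against the control line with doxycycline, it was lower in the shRNA-labelled line with it (-0.38, adjusted p = 0.0216). This call was lost without shRNA-labelled 1 or 2 or control 1 of those arrays (adjusted p up to 0.0819). The shRNA-labelled response of NR5A2 to doxycycline minus its control response was -0.47 to -0.32 with single arrays left out. None of these was called (limma adjusted p 0.131 to 0.402). Whether any direction given here follows from lower LRH-1 was not tested. Of 11 epithelial markers with a probe, 9 were detected on all 12 arrays, CDX1 on none. The leukocyte marker PTPRC, the endothelial markers CDH5 and VWF and the fibroblast marker COL1A2 were detected on 0 arrays. COL3A1 and CD3E were detected on 1 array and DCN on 4. Detected on all 12 were 4 of 7 fibroblast markers (COL1A1, LUM, PDGFRA, PDGFRB), 2 of 4 leukocyte markers (CD14, LYZ) and 1 of 3 endothelial markers (PECAM1). Signals of the markers that passed the filter were summed on the linear scale, where the brightest weigh most, and taken to log2. The sum of 10 epithelial markers was 17.04 to 17.08 in the shRNA-labelled line with doxycycline against 16.96 to 17.03 without. In the control line it was 17.00 to 17.08 with doxycycline against 17.00 to 17.10 without. The sum of 5 fibroblast markers was 12.32 to 12.49 in the shRNA-labelled line with doxycycline against 11.81 to 11.94 without. In the control line it was 12.52 to 12.75 with doxycycline against 11.82 to 11.96 without. The leukocyte sum was 12.20 to 12.47 in the shRNA-labelled line with doxycycline against 11.95 to 12.06 without, and 12.19 to 12.47 in the control line with doxycycline against 12.28 to 12.49 without. The endothelial level was 8.55 to 8.93 in the shRNA-labelled line with doxycycline against 9.0 to 9.14 without, and 8.82 to 9.27 in the control line with doxycycline against 8.67 to 8.72 without. Markers within a sum did not all move together. With doxycycline in the shRNA-labelled line the 2 leukocyte markers differed by 1.64 and -0.64. The 5 fibroblast markers lay between -0.59 and 0.93 there, 3 positive and 2 negative. The part of these markers in the results below was not tested.

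Levels of the family varied little across the arrays. The mean log2 signal of a member differed by a median of 0.25 between its highest and lowest group, against 0.45 over all genes tested. In 65 of 76 members (85.5%) this range was under 0.5, as it was in 56.8% of all genes. A range over 1 was found in 1 member, MRPS26 (1.32%), and in 11.3% of all genes. The SD between replicate arrays was also smaller, with a median of 0.12 for members and 0.18 for all genes. Group means were highest in the shRNA-labelled line with doxycycline for 19 members, in that line without it for 24, in the control line with doxycycline for 18 and in the control line without it for 15. They were lowest in the same groups for 20, 11, 15 and 30 members. The median deviation of the members from their own means was 0.01 and 0.04 in the shRNA-labelled line with and without doxycycline, and 0.01 and -0.05 in the control line with and without it. These deviations lay between -0.06 and 0.08 on single arrays. Since arrays were made from the RNA of whole cultures, fewer cells with a transcript and less of it per cell cannot be told apart.

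**Figure D1:**
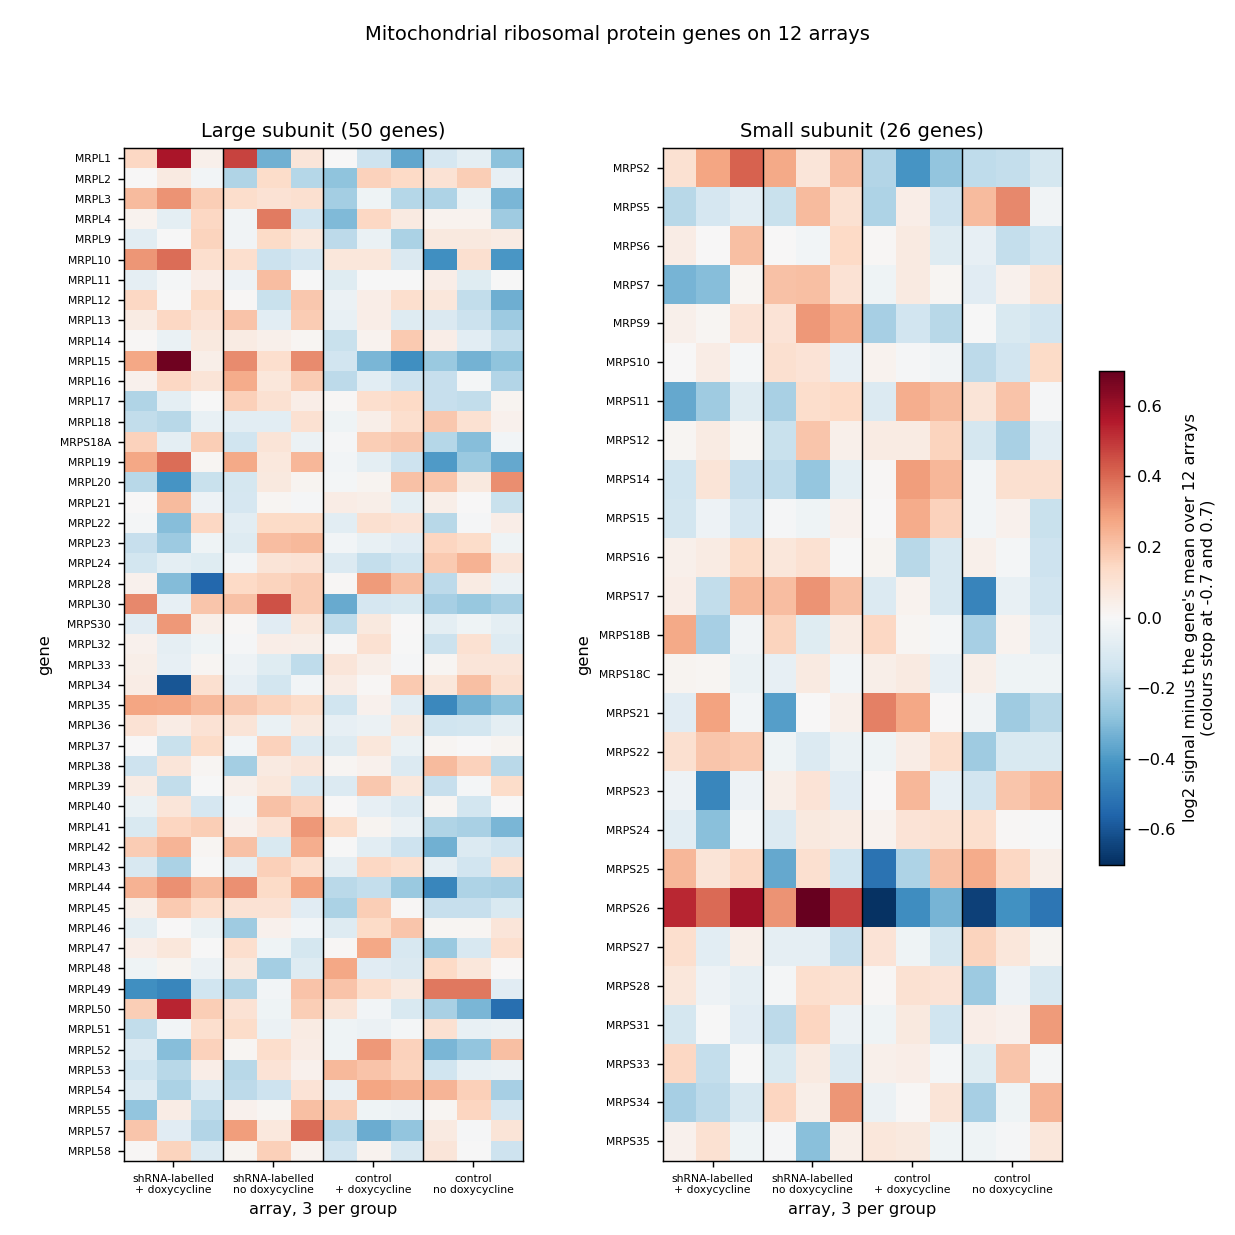
Log2 signal of each member minus its own mean over the 12 arrays, with 1 row per gene, 1 column per array, and the large (50 genes) and small (26 genes) subunit in separate panels; red is above and blue below the gene's mean. MRPS26 shows red on all 6 arrays of the shRNA-labelled line and blue on all 6 of the control line, while most other rows stay pale.

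Doxycycline left nearly all members within narrow limits in the shRNA-labelled line. With doxycycline 0 members were called higher and 1 was called lower (1.32%), against 11.5% of all genes called in this comparison by limma at an adjusted p under 0.05 (6.49% higher and 5.01% lower). At an unadjusted p under 0.05 there were 8 members (10.5%), against 25.6% of all genes. The median log2 difference of the members was -0.03, with all genes at -0.02, and single members lay between -0.43 and 0.33. The 95% interval of the difference stayed within 1.5-fold either way for 69 of 76 members (90.8%), against 57.8% of all genes, and within 2-fold for all 76. The large subunit had a median of -0.04 and the small subunit -0.02.

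The member called was MRPS7, the mitochondrial counterpart of a bacterial protein of the small subunit head. MRPS7 had log2 signals of 11.89, 11.92 and 12.23 in the shRNA-labelled line with doxycycline, against 12.42, 12.43 and 12.32 without it. Each array with doxycycline lay below each array without it, although the third came close. The difference was -0.38 (SE 0.11, limma adjusted p = 0.0384), or 0.768-fold. MRPS7 in control cells did not separate, with 12.19, 12.28 and 12.23 with doxycycline against 12.14, 12.25 and 12.31 without it. The call was lost without any one of 8 arrays, with adjusted p up to 0.136: shRNA-labelled with doxycycline 1 and 2, shRNA-labelled without it 1, 2 and 3, control with doxycycline 2 and 3, and control without it 2.

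In the control line 1 member rose and 1 fell with doxycycline (2.63% of 76), against 16% of all genes called, 7.88% higher and 8.11% lower. At an unadjusted p under 0.05 there were 14 members (18.4%), against 29.6% of all genes. The members' median difference was 0.04 and that of all genes -0.01, with single members between -0.33 and 0.37. The interval stayed within 1.5-fold for 71 members (93.4%), against 54.4% of all genes, and within 2-fold for all 76. The large subunit had a median of 0.04 and the small subunit 0.03.

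MRPL24, a large subunit protein with a bacterial counterpart, had 13.04, 12.97 and 13.00 in the control line with doxycycline, against 13.32, 13.38 and 13.22 without it. The groups did not overlap, and the difference was -0.30 (SE 0.08, limma adjusted p = 0.031). Its other probe gave -0.35. MRPL35, also of the large subunit with a bacterial counterpart, had 12.31, 12.48 and 12.38 with doxycycline, against 12.00, 12.12 and 12.17 without it, a difference of 0.29 (SE 0.09, adjusted p = 0.0393). Its 2 other probes went the opposite way, at -0.39 and -0.29, and the mean of its probes gave -0.13 (adjusted p = 0.435), so the sign of MRPL35 depends on the probe. The MRPL24 call was lost without control with doxycycline 1, 2 or 3 or control without it 1 or 2, with adjusted p up to 0.102. The MRPL35 call was lost without any one of 8 arrays, with adjusted p up to 0.146: shRNA-labelled with doxycycline 1, shRNA-labelled without it 1, 2 and 3, control with doxycycline 2 and 3, and control without it 1 and 2.

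The response to doxycycline was also compared between the lines, as the shRNA-labelled response minus the control response. Of the members, 0 were called, against 0.844% of all genes, by limma. At an unadjusted p under 0.05 there were 6 members (7.89%), against 15.9% of all genes. The other limma settings tried also called 0 members, as listed with the alternatives. The median difference of responses was -0.08 (0.01 over all genes), with 24 members positive and 52 negative. The large subunit stood at -0.08 and the small subunit at -0.07. The largest was MRPL28, a large subunit protein with a bacterial counterpart, at -0.66 (SE 0.20, adjusted p = 0.142). MRPL28 had 9.16, 8.83 and 8.58 in the shRNA-labelled line with doxycycline, against 9.27, 9.29 and 9.31 without it. In the control line it had 9.14, 9.43 and 9.34 with doxycycline, against 8.95, 9.19 and 9.09 without it. In the other direction MRPS25, a small subunit protein specific to mitochondria, stood at 0.61 (SE 0.24, adjusted p = 0.243).

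**Figure D2:**
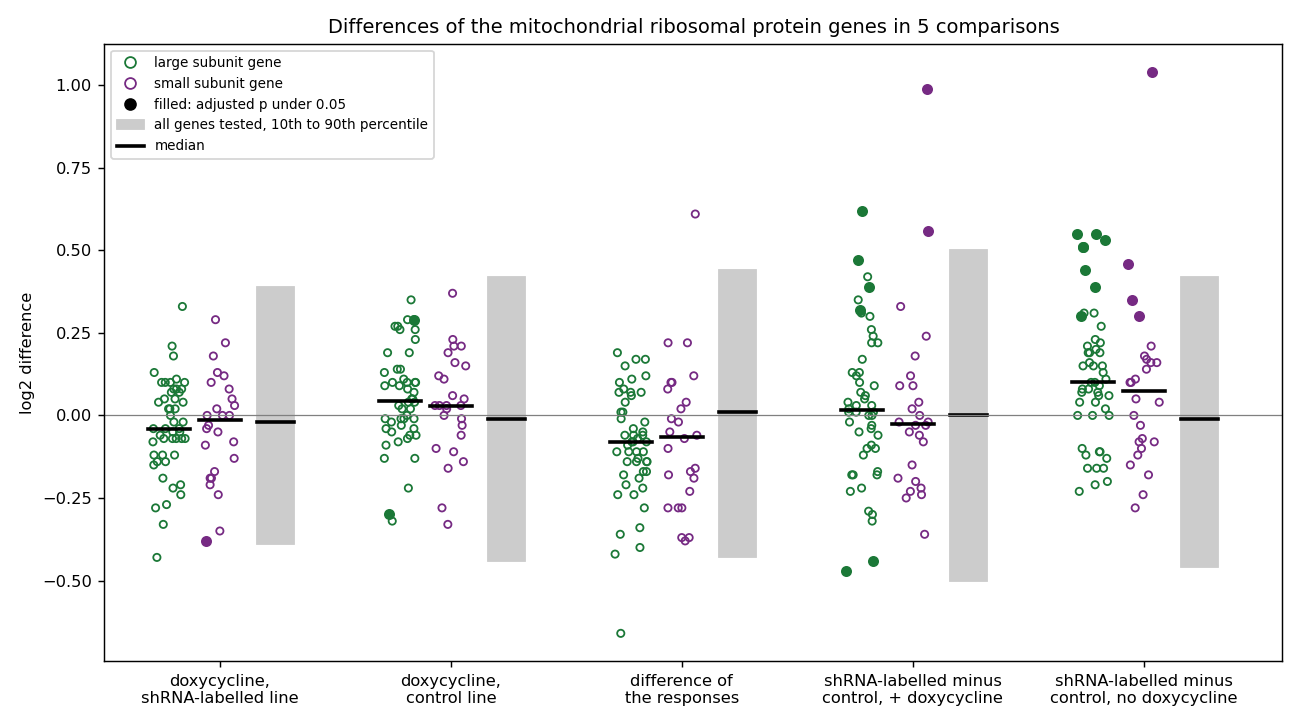
Log2 differences (y axis) of the 50 large subunit genes (green) and 26 small subunit genes (purple) in each of the 5 comparisons, with filled points for an adjusted p under 0.05, black lines for medians, and grey bars from the 10th to the 90th percentile of all 12566 genes. Most members lie inside the grey bars, and filled points gather above 0 in the comparison of the lines without doxycycline, where MRPS26 stands highest at 1.04.

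More members differed between the lines than with doxycycline. With doxycycline in both lines, 6 members were higher and 2 lower in the shRNA-labelled line (10.5% of 76), against 22.6% of all genes called. Without doxycycline, 12 members were higher and 0 lower (15.8%), against 16.3% of all genes called, with 7.46% higher and 8.87% lower. The count of 8 was 5 without shRNA-labelled 2 or control 3 with doxycycline. The count of 12 was 5 without shRNA-labelled 3 or control 1, 6 without control 3 and 7 without shRNA-labelled 1, all arrays without doxycycline. Median scaling in place of quantile normalization left 1 call in each. Unadjusted p under 0.05 was reached by 18 members with doxycycline (23.7%, against 35.4% of all genes) and by 17 without (22.4%, against 31.5%). The members' median difference was 0.00 with doxycycline and 0.10 without, where all genes stood at -0.01 and 52 of 76 members were positive. Called shares were thus below that of all genes with doxycycline and close to it without, where all the calls went one way.

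The medians of the subunits lay close together in both line comparisons. With doxycycline the large subunit had a median of 0.01 with 4 of 50 higher and 2 lower, and the small subunit -0.03 with 2 of 26 higher and 0 lower. Without doxycycline the large subunit had a median of 0.10 with 8 of 50 higher, and the small subunit 0.07 with 4 of 26 higher. Large minus small came to 0.04 and 0.03, against an SD of this quantity between replicate arrays of 0.03. Without doxycycline, members with a bacterial counterpart had a median of 0.11 (8 of 45 higher) and those specific to mitochondria 0.06 (4 of 31 higher).

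MRPS26, a small subunit protein specific to mitochondria, differed most. It had 12.98, 12.85 and 13.04 in the shRNA-labelled line with doxycycline, against 11.76, 12.02 and 12.13 in the control line with it. Without doxycycline it had 12.77, 13.18 and 12.93 in the shRNA-labelled line, against 11.80, 12.03 and 11.95 in the control line. All 6 arrays of the shRNA-labelled line lay above all 6 of the control line. The line difference was 0.99 (SE 0.13, limma adjusted p = 0.000327), or 1.98-fold, with doxycycline, and 1.04 (SE 0.13, adjusted p = 0.000444), or 2.05-fold, without. Its doxycycline response was -0.00 in the shRNA-labelled line, against 0.05 for control cells. The call held under each of the 26 alternatives that apply to it, with adjusted p from 4.01e-06 to 0.00301 with doxycycline and from 4.67e-06 to 0.00437 without.

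MRPS26 was 1 of 5 members called in both line comparisons, which share no arrays. The others were MRPL15, MRPL35, MRPL44 and MRPS2, all higher in the shRNA-labelled line. The 5 are 62.5% of the 8 members called with doxycycline and 41.7% of the 12 called without. Over all genes, 1189 were called in both, 41.8% of those called with doxycycline and 57.9% of those called without.

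MRPL44, a large subunit protein specific to mitochondria and related to ribonuclease III, had 12.58, 12.66 and 12.56 in the shRNA-labelled line, against 12.15, 12.17 and 12.08 in the control line, both with doxycycline. Without it MRPL44 had 12.66, 12.47 and 12.62 in the shRNA-labelled line, against 11.88, 12.12 and 12.11 in the control line. The lines did not overlap, and the difference was 0.47 (adjusted p = 0.00447) with doxycycline and 0.55 (adjusted p = 0.00329) without. No single array decided either call.

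MRPS2, the small subunit counterpart of a bacterial protein, had 11.25, 11.42 and 11.56 in the shRNA-labelled line, against 10.94, 10.73 and 10.87 in the control line, both with doxycycline. Without it MRPS2 had 11.41, 11.23 and 11.36 in the shRNA-labelled line, against 10.97, 10.98 and 11.02 in the control line. Again the lines did not overlap, with a difference of 0.56 (SE 0.10, adjusted p = 0.00221) with doxycycline and 0.35 (SE 0.10, adjusted p = 0.0403) without. The second call was lost, with adjusted p up to 0.123, without shRNA-labelled 1 or 3 without doxycycline, control 1, 2 or 3 without it, or control 3 with it.

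MRPL35 had 12.73, 12.72 and 12.68 in the shRNA-labelled line with doxycycline, against 12.31, 12.48 and 12.38 in the control line with it. Without doxycycline it had 12.64, 12.61 and 12.58 in the shRNA-labelled line, against 12.00, 12.12 and 12.17 in the control line. The difference was 0.32 (adjusted p = 0.0198) with doxycycline and 0.51 (adjusted p = 0.0026) without, and here its 2 other probes had the same sign, at 0.42 and 0.33 with doxycycline and 0.16 and 0.33 without. The call with doxycycline was lost without shRNA-labelled 1 or 2 or control 1 or 3 of those arrays, with adjusted p up to 0.072.

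MRPL15, a large subunit protein with a bacterial counterpart, had 11.69, 12.10 and 11.46 in the shRNA-labelled line with doxycycline, against 11.29, 11.10 and 10.99 in the control line with it. Without doxycycline it had 11.75, 11.54 and 11.75 in the shRNA-labelled line, against 11.16, 11.09 and 11.14 in the control line. The difference was 0.62 (SE 0.15, adjusted p = 0.0112) with doxycycline and 0.55 (SE 0.15, adjusted p = 0.0275) without. Its control values without doxycycline were close together, while the shRNA-labelled values with doxycycline spread widely without reaching them. The call without doxycycline was lost, with adjusted p up to 0.0877, without shRNA-labelled 1 or 3 or any one of the 3 control arrays without it.

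**Figure D3:**
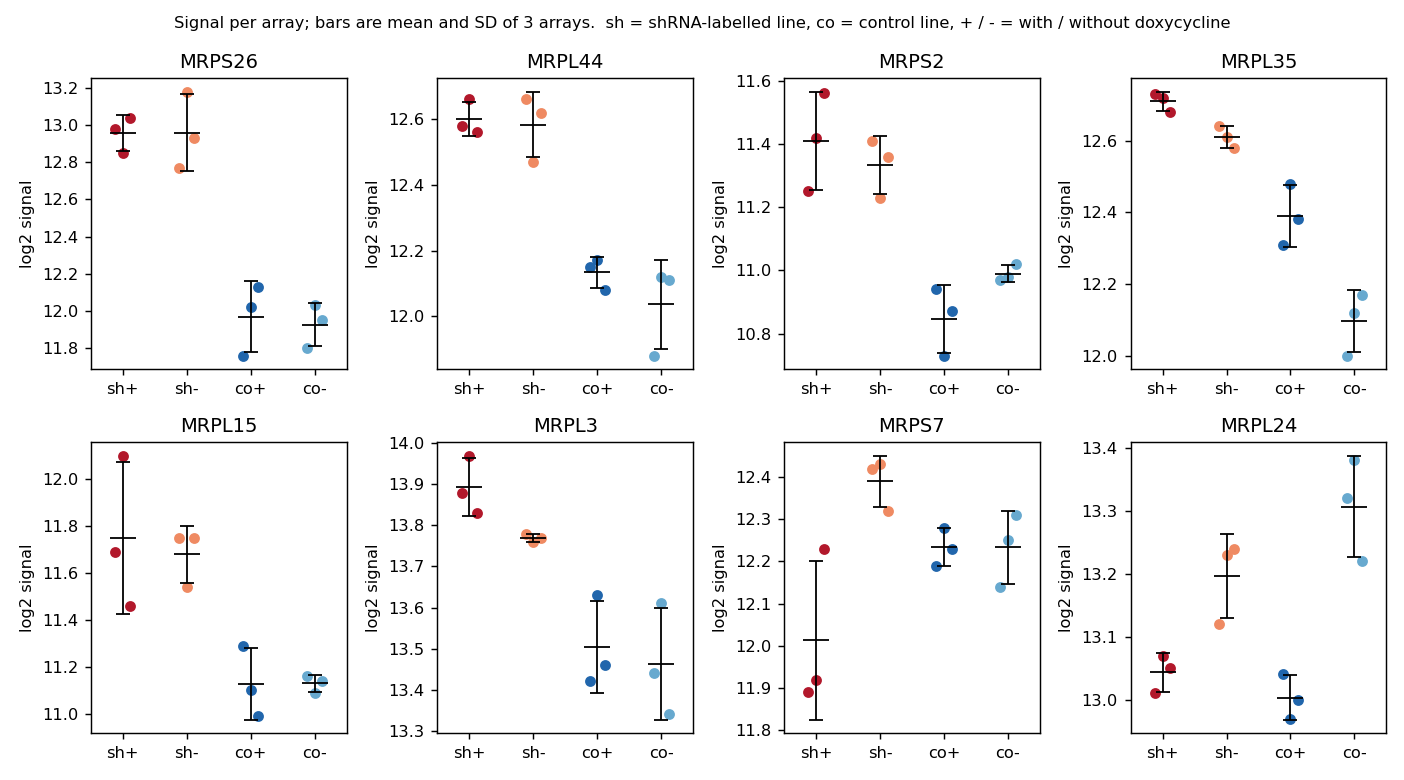
Log2 signal (y axis) of 8 members on each array, with points for arrays and black bars for the mean and SD of 3 arrays; the groups run from the shRNA-labelled line with and without doxycycline to the control line with and without it. MRPS26 lies at 12.77 to 13.18 in the shRNA-labelled line and at 11.76 to 12.13 in the control line, and MRPL44 and MRPS2 show the same order on a smaller scale.

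A further 3 members were called only where both lines had doxycycline, without a test that they differed from the other comparison. MRPL3, which in bacteria lies near the site of peptide bond formation, had 13.88, 13.97 and 13.83 in the shRNA-labelled line, against 13.42, 13.63 and 13.46 in the control line. The difference was 0.39 (adjusted p = 0.0141), and its other probe gave 0.82 (adjusted p = 0.0207 in a fit of all kept probes). MRPL49, specific to mitochondria, had 10.66, 10.63 and 10.95 in the shRNA-labelled line, against 11.29, 11.21 and 11.16 in the control line, a difference of -0.47 (adjusted p = 0.0413). MRPL28, with the values given above, overlapped between the lines and stood at -0.44 (adjusted p = 0.0398). The MRPL3 call was lost without shRNA-labelled 2 or control 1 or 3 with doxycycline (adjusted p up to 0.0535). The MRPL49 call was lost without shRNA-labelled 1 or 2 or any control array with doxycycline, or shRNA-labelled 2 without it (up to 0.126). The MRPL28 call was lost without shRNA-labelled 2 or 3 or control 2 or 3 with doxycycline, or any shRNA-labelled array without it (up to 0.125).

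A further 7 members were called only without doxycycline, again with no test against the other comparison. MRPL19, a large subunit protein with a bacterial counterpart, had 12.40, 12.21 and 12.37 in the shRNA-labelled line, against 11.74, 11.88 and 11.78 in the control line, a difference of 0.53 (SE 0.11, adjusted p = 0.00876). No single array decided this call. MRPL30, of the same kind, had 11.25, 11.49 and 11.22 in the shRNA-labelled line, against 10.81, 10.78 and 10.82 in the control line, a difference of 0.51 (SE 0.12, adjusted p = 0.0156). The other probe of MRPL30 gave -0.08, and the mean of its probes 0.22 (adjusted p = 0.143). Its call was lost without shRNA-labelled 2 or control 1 without doxycycline (adjusted p up to 0.0554).

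The other 5 of these members were smaller differences near the threshold, none with overlapping groups. MRPS17, a small subunit protein with a bacterial counterpart, had 13.36, 13.46 and 13.35 in the shRNA-labelled line, against 12.68, 13.09 and 13.01 in the control line (difference 0.46, adjusted p = 0.0312). MRPL50, specific to mitochondria, had 12.91, 12.78 and 12.98 in the shRNA-labelled line, against 12.58, 12.49 and 12.28 in the control line (difference 0.44, adjusted p = 0.0321). MRPL41, also specific to mitochondria, had 11.95, 12.02 and 12.22 in the shRNA-labelled line, against 11.71, 11.69 and 11.60 in the control line (difference 0.39, adjusted p = 0.03). These 3 belong to both subunits, and so do the other 2. MRPS9, with a bacterial counterpart in the small subunit, had 12.58, 12.79 and 12.74 in the shRNA-labelled line, against 12.48, 12.38 and 12.35 in the control line (difference 0.30, adjusted p = 0.0403). MRPL16, with a bacterial counterpart in the large subunit, had 13.15, 12.97 and 13.07 in the shRNA-labelled line, against 12.73, 12.88 and 12.69 in the control line (difference 0.30, adjusted p = 0.0478). Each of these 5 calls was lost on leaving out some of the arrays without doxycycline. For MRPS17 these were shRNA-labelled 1, 2 or 3 or control 1 (adjusted p up to 0.12), for MRPL50 shRNA-labelled 1 or 3 or control 2 or 3 (up to 0.106), and for MRPL41 shRNA-labelled 2 or 3 or any control array (up to 0.114). For MRPS9 they were shRNA-labelled 2 or 3 or any control array, and also shRNA-labelled 1 or control 2 or 3 with doxycycline (up to 0.117). The MRPL16 call was lost without any one of the arrays except control 2 without doxycycline (up to 0.147).

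Further probes of the family did not always give the same call as the brightest. A total of 24 members had 29 further kept probes, and in 6 members a further probe was called in a comparison where the brightest was not. With doxycycline in both lines, a second probe of MRPL11 was higher in the shRNA-labelled line (0.80, adjusted p = 0.00189) where the brightest gave 0.02, and second probes of MRPL43 (-0.60), MRPS11 (-0.67), MRPL55 (-0.40) and MRPS33 (-0.59) were lower where the brightest gave -0.18, -0.36, -0.17 and -0.03. The second MRPL11 probe was also higher without doxycycline (0.47, adjusted p = 0.0432). Second probes of MRPL55 with doxycycline in the shRNA-labelled line (-0.43) and of MRPS21 with doxycycline in the control line (0.43) were called too, where the brightest gave -0.22 and 0.37.

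The genes next to MRPS26 were examined after its values were seen. Along chromosome 20, in the gene order of RefSeq GRCh38.p14, the tested genes nearest to MRPS26 were PTPRA, which encodes a receptor tyrosine phosphatase, and GNRH2, which encodes a form of gonadotropin-releasing hormone, on one side. On the other side were OXT, which encodes oxytocin, and AVP, which encodes vasopressin. PTPRA and OXT were detected on all 12 arrays and were called higher in the shRNA-labelled line without doxycycline, as MRPS26 was. The next tested genes beyond these, VPS16 (-0.17) and UBOX5 (-0.12), were not called.

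PTPRA had 12.74, 12.77 and 12.65 in the shRNA-labelled line without doxycycline, against 11.98, 12.20 and 12.30 in the control line, a difference of 0.56 (limma adjusted p = 0.00769). With doxycycline PTPRA had 12.97, 13.27 and 13.12 in the shRNA-labelled line, against 12.31, 12.24 and 12.11 in the control line, a difference of 0.90 (adjusted p = 0.00023). Its other probes gave 0.84, 0.22 and -0.27 between the lines with doxycycline, and 0.52, 0.40 and 0.18 without it. OXT differed by 0.56 without doxycycline (adjusted p = 0.0134) and by 0.34 with it (adjusted p = 0.0772, not called), and the first call was lost without control 1 without doxycycline (adjusted p = 0.0595). GNRH2 and AVP passed the detection filter only through arrays of the shRNA-labelled line, so their levels are described without a test between the lines. GNRH2 was detected on all 6 arrays of that line, at 7.01, 7.19 and 7.12 with doxycycline and 6.52, 6.50 and 6.40 without it, and was not well above background on any control array. AVP was detected on the 3 shRNA-labelled arrays with doxycycline, at 7.05, 6.94 and 7.00, and on none of the other 9.

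In the shRNA-labelled line the response to doxycycline was -0.00 for MRPS26 (95% interval -0.29 to 0.29) and 0.14 for OXT (adjusted p = 0.542). GNRH2 rose by 0.63 (adjusted p = 0.0117). PTPRA rose by 0.40 on its brightest probe (adjusted p = 0.0442), while its other probes gave 0.35, 0.04 and -0.24. No test set these genes against MRPS26. The PTPRA rise was lost without any one of 9 arrays, which are all but shRNA-labelled 1 with doxycycline and control 1 and 3 without it (adjusted p up to 0.164), and the GNRH2 rise without shRNA-labelled 3 without doxycycline (0.0517). Over all alternatives the PTPRA call was lost in 15 of 26 and the GNRH2 call in 6 of 25. The GNRH2 losses included no background correction, normexp, median scaling, a trended robust variance and the fold limit (adjusted p up to 0.255).

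**Figure D4:**
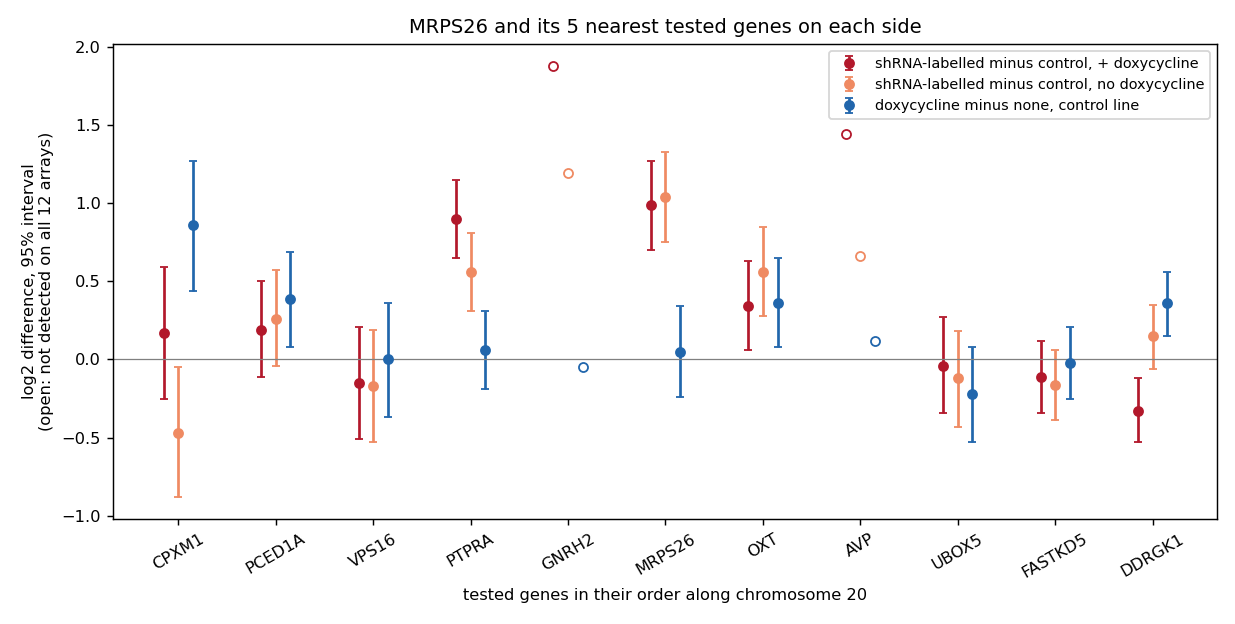
Log2 differences with 95% intervals (y axis) of MRPS26 and its 5 nearest tested genes on each side, in their order along chromosome 20, for the line difference with doxycycline (red), without it (orange) and the doxycycline response of the control line (blue). MRPS26 stands at 0.99 and 1.04 and PTPRA at 0.90 and 0.56 in the line differences with and without doxycycline, and open points mark genes not detected on all 12 arrays, GNRH2 and AVP, whose fitted sizes are no folds.

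Members called without doxycycline were also set out by chromosome after their values were seen. Chromosome 2 held 5 of the 12, MRPL19, MRPL30, MRPL35, MRPL44 and MRPS9, out of 8 members there, and chromosome 9 held MRPS2, MRPL41 and MRPL50, all 3 of its members. The other members of chromosome 2 were MRPL33 (-0.16), MRPL53 (0.06) and MRPS5 (-0.12). On the other chromosomes 4 of 65 members were higher (6.15%), against 6.83% of all genes there. The median member difference was 0.41 on chromosome 2, 0.39 on chromosome 9 and 0.08 elsewhere.

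All tested genes of these chromosomes leaned the same way by less. Of 822 genes on chromosome 2, 13.3% were called higher and 4.38% lower, with a median of 0.13. Of 500 genes on chromosome 9, 12.4% were called higher and 6% lower, with a median of 0.07. These were the highest medians of the 23 chromosomes examined, the next being 0.04, and the other chromosomes together stood at -0.02. Chromosome 13 leaned further the other way, with a median of -0.17 over 222 genes, 1.8% called higher and 19.8% lower. Its 2 members had a median of 0.03 and 0 were called. With doxycycline the medians of chromosomes 2 and 9 were 0.14 and 0.07, with 18.9% and 17.2% of genes called higher. There 2 of 8 and 1 of 3 members were called higher. The count of members called higher on these chromosomes without doxycycline was 8, and it was 5 without shRNA-labelled 2 and 4 without shRNA-labelled 3 or without control 1, 2 or 3, all of them arrays without doxycycline.

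**Figure D5:**
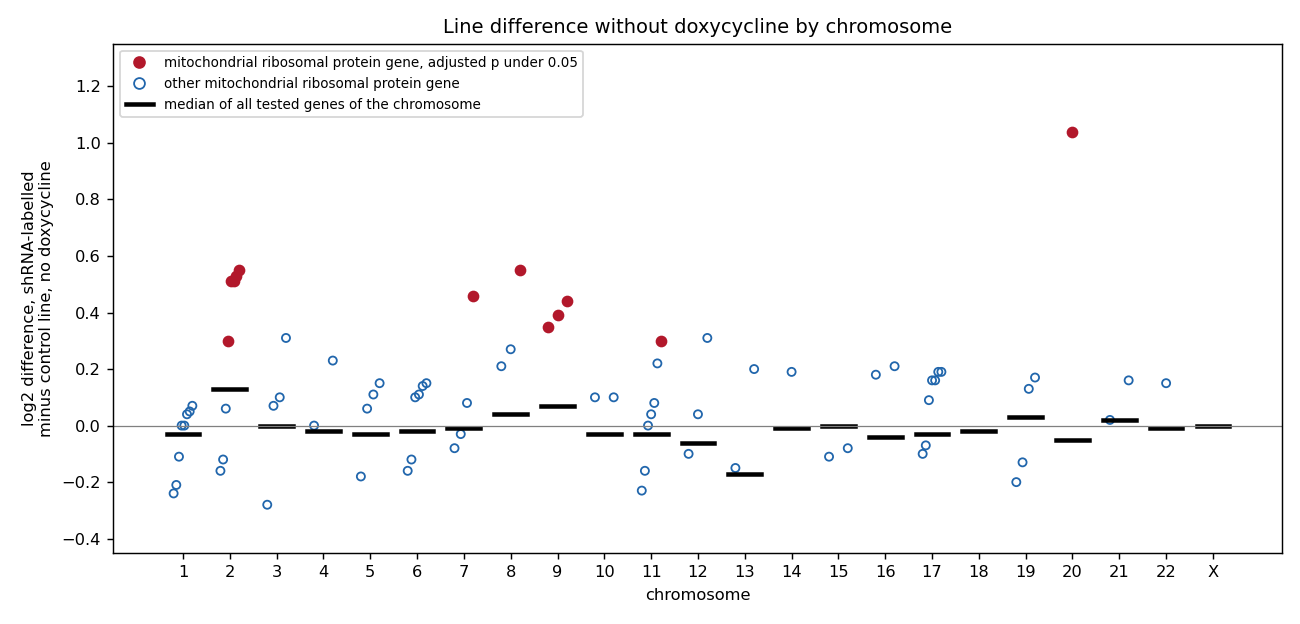
Line difference without doxycycline (log2, y axis) of each member by chromosome, with filled red points for an adjusted p under 0.05, open blue points for other members, and black lines for the median of all tested genes of the chromosome. Chromosomes 2 and 9 hold 8 of the 12 red points and have the highest black lines, at 0.13 and 0.07, and MRPS26 stands alone on chromosome 20 at 1.04.

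Other genes of mitochondrial translation and biogenesis were read from lists, with 0 to 3 calls per list in each comparison. Of the mitochondrial ribosomal proteins with other symbols, 4 were tested, and CHCHD1, of the small subunit, was higher in the shRNA-labelled line without doxycycline (0.45, adjusted p = 0.0439), which is 25% of that list against 16.3% of all genes. With doxycycline in the shRNA-labelled line, OXA1L, which inserts proteins into the inner membrane, was higher (0.41, adjusted p = 0.0425), as was the nuclear receptor gene ESRRA (0.38, adjusted p = 0.026). These were 1 of 16 translation factors (6.25%) and 1 of 8 biogenesis regulators (12.5%), against 11.5% of all genes called. In the control line with doxycycline 16% of all genes were called. Of 27 assembly genes 2 were higher and 1 lower there: YBEY, an endonuclease, at 0.61, MTG1, a GTPase, at 0.39, and the protease LONP1 at -0.55. Of 17 genes of mitochondrial DNA and transcription, TEFM, an elongation factor, was higher at 0.41 and PRORP, the catalytic part of mitochondrial RNase P, at 0.51. The coactivator gene PPRC1 was lower at -0.36. In the difference of the responses 0 of these genes were called by limma, against 0.844% of all genes.

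Between the lines with doxycycline, the initiation factor gene MTIF3 (-0.79, adjusted p = 0.00435) and the release factor gene MTRF1 (-0.53, adjusted p = 0.0306) were lower in the shRNA-labelled line among 16 translation factors tested, and 0 were higher (12.5% called, against 22.6% of all genes). Without doxycycline 3 of these 16 were called (18.8%, against 16.3% of all genes). Of 8 biogenesis regulators 2 were called with doxycycline (25%) and 1 without (12.5%). MYC, a transcription factor gene of growth and biogenesis, was higher both with doxycycline (0.75, adjusted p = 0.000194) and without it (0.46, adjusted p = 0.00755). With doxycycline FASTKD2, which binds mitochondrial RNA, was higher (0.43), MTG1 lower (-0.40), the helicase gene TWNK higher (0.29) and PPRC1 higher (0.36). Without doxycycline MTFMT, which formylates the initiator transfer RNA, was higher (0.42), YBEY higher (0.33), MTRES1 lower (-0.49) and MTRF1 lower (-0.52). In these 2 paragraphs, leaving out single arrays left the calls of YBEY and TEFM in the control line, of MTIF3, and of MYC in both comparisons in place, and each of the other calls was lost without at least 2 of the arrays, with adjusted p from 0.0506 to 0.16.

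Cytosolic ribosomal proteins, which build the other ribosome of the cell, were read for comparison. With doxycycline 3 of 73 (4.11%, against 11.5% of all genes) were higher in the shRNA-labelled line (RPL14 at 0.65, RPS7 at 0.48, RPL36A at 0.38). In the control line 0 of 73 were called, against 16% of all genes, and 5 had an unadjusted p under 0.05. Between the lines 4 of 73 (5.48%, against 22.6% of all genes) were higher with doxycycline (RPS7 at 0.56, RPL22L1 at 0.49, RPL36A at 0.36, RPL28 at 0.31). Without it 0 of 73 were called between the lines, against 16.3% of all genes, and 4 had an unadjusted p under 0.05. The RPS7 call between the lines held without any single array, and each of the other 6 was lost without 1 or more of them, with adjusted p from 0.0506 to 0.109. That last comparison is the one in which 12 of 76 mitochondrial members were higher, a share close to the 16.3% of all genes called. With median scaling or the fold limit 1 member was left. The difference between these families was not tested.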

How the data were processed

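Total RNA of 12 samples was amplified and labelled with biotin for Illumina bead arrays (per the labels' protocols). Per the file headers, each probe has a linear mean bead intensity and a detection p-value on each array in the deposited non-normalized table. The submitters' processing notes name GenomeStudio and lumi without role or version. The authors' deposited value table, on a scale near log2 with a median of 6.64 in each array, served as an alternative, with background step and transformation not given in the sources used here. Each array correlated best with its own column of it.

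Intensities were background-corrected with limma 3.58.1 (R 4.3.3) using negative controls inferred from the detection p-values, offset 16, then taken to log2 and quantile-normalized. Of 47314 probes, 30109 had 1 symbol, 8 several and 17197 none. Symbols were updated through Entrez identifiers to RefSeq. The filter left 22417 probes and 12566 genes. A means model over all 12 arrays with 5 contrasts (lmFit, eBayes, 8 residual degrees of freedom before moderation) gave two-sided p-values with Benjamini-Hochberg adjustment over all genes, called under 0.05. A single 3 against 3 comparison cannot go below p = 0.1 in an exact permutation test. The number of arrays limits the precision. All arrays were on 1 chip, per the labels. The procedure was tested on simulated data, with 100 genes changed by 0.5 log2 and 100 by 1 log2 between the lines without doxycycline. It recovered 25% of the changes of 0.5 and 79% of those of 1, with 6 false calls among 110. The changed genes were drawn from all 12566 genes, and the noise was drawn independently for each gene and array. In the data 16.3% of genes were called in this comparison, and members had a median replicate SD of 0.12 against 0.18 for all genes. The recovered shares therefore do not give the power for the members. The other comparisons were not simulated.

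The members and lists were chosen with earlier results of these data known. Named genes were members past the threshold, up to 10 each way per comparison, up to 4 each way for companion lists, and members whose probes disagreed. The MRPS26 neighbours, chromosomes and other values said to be so were chosen after values were seen. Levels were not compared between probes. Replicate numbers were checked for pairing through the correlation of deviations from group means. It was -0.19 to 0.232 (median 0.0699) for arrays of the same number. For arrays of different numbers it was -0.333 to 0.25 (median -0.0378). The ranges overlapped and the main fit did not pair the samples, but whether the numbers pair them is unsettled.

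Each choice was changed alone: background correction (none, or normexp), median scaling, deposited values, detection filters, averaged probes, fits of just the compared groups, a replicate block, weighted arrays, a trended robust variance, a fold limit of 1.2, the platform's symbols, subunits by symbol prefix, and leaving out each array.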

Additional observations from a re-analysis of the deposited data

How the results depend on the processing

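The counts of members called depended on settings more than the medians did. In the shRNA-labelled line with doxycycline the 1 call became 0 with median scaling, no detection filter, the compared groups alone, the replicate block or a fold limit of 1.2, and 6 with array weights. In the control line the 2 calls became 0 under the same 5 settings and 4 with array weights. Between the lines with doxycycline the 8 calls became 14 without background correction or with a trended robust variance, 16 with array weights, and 1 with median scaling or the fold limit. Between the lines without doxycycline the 12 calls became 1 with median scaling or the fold limit and 6 with the compared groups alone. MRPS26 was the member left in both line comparisons under median scaling and the fold limit. Median scaling put the members' median at -0.10 and 0.07 for doxycycline in the shRNA-labelled and the control line, -0.19 for the difference of responses, and -0.04 and 0.15 between the lines with and without doxycycline, and it moved the median of all genes by under 0.1. With the mean of probes, large minus small was -0.02 for doxycycline in the control line and 0.01 for the difference of responses, and with array weights 0.01 between the lines with doxycycline, against 0.02, -0.01 and 0.04. MRPL35 reversed to -0.13 in the control line with the mean of probes, where its other probes enter. The cause of the other changes was not tested.

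Leaving out single arrays gave 0 to 1 calls for doxycycline in the shRNA-labelled line, 0 to 3 in the control line, 0 for the difference of responses, 5 to 10 between the lines with doxycycline and 5 to 11 without. The 5 with doxycycline came without shRNA-labelled 2 or control 3 with it, and the 5 without doxycycline came without shRNA-labelled 3 or control 1 without it. In the same order the members' median ranged over -0.04 to -0.01, 0.02 to 0.08, -0.10 to -0.06, -0.01 to 0.02 and 0.08 to 0.10, and large minus small over -0.04 to 0.02, -0.04 to 0.05, -0.04 to 0.03, 0.02 to 0.06 and 0.02 to 0.05. Members called higher on chromosomes 2 and 9 without doxycycline numbered 0 with median scaling or the fold limit and 4 with the compared groups alone, against 8. With doxycycline they numbered 6 without background correction or with a trended robust variance, 5 with array weights and 0 with median scaling or the fold limit, against 3. The main fit did not pair the samples by replicate number, although 7 of 12 arrays correlated best with an array of their own number. Between groups, 18 pairs of arrays shared a number and 36 did not, so some best matches of the same number arise without pairing. Whether the numbers pair the samples is unsettled. Each value rests on 3 arrays, so small log2 differences lie near what the spread lets pass.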
